A study of Mus musculus with 20 samples.

Results

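The 10 presynaptic vesicle and active zone genes described here, taken by symbol and not by any measured value, were followed in bulk RNA sequencing of the mouse hippocampus. They were Syp, Syn1, Syn2, Snap25, Syt1, Stx1a, Vamp2, Slc17a7, Bsn and Pclo, 10 of the 49671 genes in the deposited tables. All 10 passed the filter on low counts and are among the 18427 genes tested. Single frozen hippocampi of 20 adult male wild-type mice, 10 to 12 weeks old, gave 1 library each. The 4 groups held 5 mice each. Control mice carried no tumour and were injected intraperitoneally with isotype antibody. ICI mice, also without a tumour, received immune checkpoint inhibitors by the same route, namely an antibody to CTLA-4 at 1 mg per dose, 3 doses a week, and an antibody to PD-1 at 200 µg per dose, 2 doses a week. Melanoma mice had D4M-3A.UV2 cells, a mouse melanoma line that grows in mice of the same strain, placed in the skin on both sides at 500000 cells per injection, with 1 week to engraft, and then received isotype antibody. Melanoma plus ICI mice had the same tumours and both inhibitors, for which the labels state 3 weeks. All mice were therefore wild type, and all were injected with antibody of some kind. Brains were collected 72 hours after the last injection. The tumours grew in the skin, and no library was made from them.

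Neurotransmitter is stored in small vesicles in the nerve terminal and released when a vesicle fuses with the plasma membrane. A transporter fills the vesicle, synapsins tether it in a reserve pool, and large scaffold proteins of the active zone hold the release machinery at the membrane that faces the synaptic cleft. Fusion is driven by a SNARE complex, formed by a protein of the vesicle with a pair of proteins of the plasma membrane, and is triggered when calcium binds synaptotagmin. In the hippocampus these proteins are best known from the terminals of glutamatergic principal neurons. Their mRNAs lie mostly in neuronal cell bodies, so the terminals of neurons located elsewhere are not represented in them.

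The promoters of Syn1 and Bsn are printed because both genes took their lowest values in the same pair of libraries (below) and because each window held a sequence motif that few promoters hold. Pclo was lowest in that pair as well, but its window held no match to the motifs marked below. Whether a motif bears on those values was not tested. Of the 10 genes, 8 are in the RefSeq promoter table of GRCm38.p6, the exceptions being Snap25 and Vamp2. The windows run from 250 bases before the RefSeq start, and the part printed ends before the first base of the deposited gene. The synapsin 1 promoter is known as a target of the repressor REST in cells other than neurons. The Syn1 run lies at chrX:20921005-20921168 on the minus strand, and capitals mark, in order, a core of the motif of nuclear respiratory factor NRF1, CGCATGCGC, the left part of the REST element RE1, TTCAGCACC, and the cyclic AMP response element (CRE), TGACGTCA.
Syn1: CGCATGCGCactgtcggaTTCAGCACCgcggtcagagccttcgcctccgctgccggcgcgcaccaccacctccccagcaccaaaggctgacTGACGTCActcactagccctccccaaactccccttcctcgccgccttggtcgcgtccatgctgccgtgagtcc
The Bsn run lies at chr9:108190385-108190633 on the minus strand, and capitals mark matches to the same NRF1 core. Each of these is matched on both strands, in letters that overlap, and is counted once.
Bsn: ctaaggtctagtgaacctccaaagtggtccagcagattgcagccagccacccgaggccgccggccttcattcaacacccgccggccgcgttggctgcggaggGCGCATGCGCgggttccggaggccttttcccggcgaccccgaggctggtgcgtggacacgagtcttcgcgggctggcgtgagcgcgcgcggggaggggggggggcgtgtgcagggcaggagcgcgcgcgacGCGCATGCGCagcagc
In Syn1 the NRF1 letters began 164 bases, the RE1 letters 146 bases and the CRE letters 73 bases before the deposited gene start. In Bsn the NRF1 matches began 147 and 16 bases before it. Over 32851 windows of the same table, on both strands, the CRE letters were in 1.55%, those of the left part of RE1 in 0.301% and those of the NRF1 core in 1.45%. Among the 8 genes in the table, only Syn1 held the CRE and RE1 letters, and Syn1 and Bsn held the NRF1 core. The right part of RE1, GGACAGCGC, was in 0.304% of all windows and in 0 of the 8. The GC box GGGCGG was in 6 of the 8 and in 32.7% of all windows, and the TATA box TATAAA was in 0 of the 8 and in 12.4% of all. These matches describe the letters of the windows and do not show that a factor was bound.

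Total counts per library ran from 21990624 to 25735149. Control 4 and melanoma plus ICI 1 stood apart from the other 18 libraries, because long genes were low and short genes high in both. This was measured as the slope of log2 CPM, centred per gene, on log2 gene length over the other 18417 tested genes. CPM means counts per 1000000 of the scaled library size. The slope was -0.11 in control 4 and -0.07 in melanoma plus ICI 1 and lay between -0.01 and 0.04 in the others. The 727 tested genes over 12 kb were lower than their 20-library mean by a median log2 value of -0.47 in control 4 and -0.35 in melanoma plus ICI 1. All 8 neuronal markers, 5 neocortical, 5 dentate gyrus, 4 CA1 and 3 CA3 markers were tested. No gene of the 15 marker lists had a count of 0 in any of the 20 libraries. The summed level of the choroid plexus markers ran from 20.4 to 6514 CPM and that of the dentate gyrus markers from 40.7 to 650.4 CPM. In such bulk samples, fewer cells of a type and less RNA per cell cannot be told apart. The numbers in the library names follow the groups, except that an ICI library and melanoma plus ICI 1 both bear the number 64, and their meaning is not given. A batch that followed these numbers cannot be told apart from the treatment.

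All 10 genes were abundant in all 20 libraries, with no library below 77.5 CPM for any of them. On the scale of CPM per kilobase of deposited gene length, which allows genes to be compared, the transporter Slc17a7 had the highest mean level, at 276.0, and Pclo the lowest, at 11.3. Snap25 was at 272.9, Vamp2 at 236.9, Syp at 224.6, Syt1 at 159.7, Syn1 at 134.0, Syn2 at 88.5, Stx1a at 57.2 and Bsn at 38.0 CPM per kilobase. The ranges of all neighbours in that order overlapped over the 20 libraries. Within a library the order was firmer. Syp exceeded Syt1, Syt1 exceeded Syn1, Syn1 exceeded Syn2 and Bsn exceeded Pclo in all 20 libraries, whereas Slc17a7 exceeded Snap25 in 11 of 20 and did not differ from it beyond that spread. The deposited length counts all annotated exons of a gene, so a gene with unused exons is placed too low on this scale.

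The transporter came first in that order. Slc17a7 (ENSMUSG00000070570, chr7:45163949-45176142, plus strand, length 5392 bases) encodes the transporter that loads glutamate into vesicles of most cortical and hippocampal excitatory neurons. The control mean was 1461 ± 159 CPM (SD, n = 5), ICI mice averaged 1589 ± 248, melanoma mice 1531 ± 269 and mice with both 1372 ± 196. Its group ranges overlapped throughout, from 1156 CPM in a melanoma plus ICI library to 1902 CPM in a melanoma library. The other vesicular transporters were far lower. Slc32a1, which loads GABA and glycine, averaged 97.9 CPM over the 20 libraries, and Slc30a3, the zinc transporter of glutamatergic vesicles, averaged 83.2 CPM. Slc17a6 and Slc17a8, which load glutamate in other neurons, averaged 22.8 and 5.02 CPM. Slc18a2, for monoamines, averaged 6.44 CPM, and Slc18a3, for acetylcholine, 0.412 CPM. Per kilobase Slc17a7 averaged 276.0, Slc32a1 35.0, Slc30a3 29.4 and Slc17a6 4.23 CPM.

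The vesicle proteins were Vamp2, Syp, Syn1, Syn2 and Syt1. Vamp2 (ENSMUSG00000020894, chr11:69088490-69092384, plus strand, 3809 bases), the SNARE protein of the vesicle, averaged 936.0 ± 182 CPM (SD, n = 5) in control mice, 873.9 ± 69.8 with ICI, 874.5 ± 40.6 with melanoma and 925.1 ± 110.4 with both. Syp (ENSMUSG00000031144, chrX:7638471-7653256, plus strand, 5211 bases), synaptophysin, a major membrane protein of the vesicle and a common marker of synapses, had a control mean of 1178 ± 247 CPM, an ICI mean of 1178 ± 96.2, a melanoma mean of 1137 ± 114 and a mean of 1191 ± 201 with both. The group means of Syp differed by less than the SD within any of the 4 groups. Syn1 (ENSMUSG00000037217, chrX:20860511-20921004, minus strand, 3299 bases) and Syn2 (ENSMUSG00000009394, chr6:115134902-115282006, plus strand, 7031 bases) encode synapsins, the phosphoproteins that tether vesicles to one another. Syn1 was at 424.6 ± 52.3, 463.3 ± 43.7, 450.6 ± 42.8 and 430.3 ± 55.7 CPM in control, ICI, melanoma, and melanoma plus ICI. Syn2 was at 600.1 ± 129, 653.0 ± 99.3, 617.3 ± 90.6 and 618.7 ± 166 CPM in the same order. Exons of Syn1 overlap Araf on the opposite strand, whose counts were 39.7% of those of Syn1, and exons of Syn2 overlap Timp4, with 5.08%. Whether the counting used strand is not given in the sources used here, so the levels of Syn1 and Syn2 carry that uncertainty.

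Syt1 (ENSMUSG00000035864, chr10:108497650-109010982, minus strand, 8338 bases) encodes the calcium sensor of fast release. Its control libraries were at 1374, 1179, 1395, 1024 and 1131 CPM, and its ICI libraries at 1516, 1447, 1357, 1238 and 1437. The melanoma libraries were at 1344, 1475, 1187, 1478 and 1312 CPM, and the melanoma plus ICI libraries at 1245, 1313, 1313, 1248 and 1613. Control 4 was the lowest of all and melanoma plus ICI 5 the highest. Control 1 and control 3 lay above the lowest ICI library, so these groups overlapped. Against control, the log2 fold change in ICI was 0.20 (SE 0.10, 95% interval -0.02 to 0.41), which did not pass the test (edgeR quasi-likelihood, adjusted p = 0.767). It was 0.11 (SE 0.10) with each library's trend on gene length removed, and control 4 is the library with the steepest trend. With 4 tissue scores as covariates, the mean log2 CPM of choroid plexus, striatal, neocortical and dentate gyrus markers, it was 0.22 (SE 0.10, edgeR adjusted p = 0.651), and Syt1 was then at 0.27 (SE 0.12) in melanoma against control and -0.39 (SE 0.18) in the interaction, against 0.16 and -0.21 without them.

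The SNARE proteins of the plasma membrane were Snap25 and Stx1a. Snap25 (ENSMUSG00000027273, chr2:136713453-136782428, plus strand, 6791 bases) had the highest CPM of the 10 genes, with means of 1828 ± 219 for control mice, 1780 ± 124 for ICI mice, 1872 ± 256 for melanoma mice and 1931 ± 344 for mice with both (SD, n = 5). Stx1a (ENSMUSG00000007207, chr5:135023482-135051100, plus strand, 2666 bases), syntaxin, had the lowest CPM and the widest relative range, 3.78-fold from the lowest to the highest library. Its control libraries were at 203.2, 77.5, 116.4, 204.7 and 164.8 CPM, and its ICI libraries at 163.1, 110.6, 108.7, 81.6 and 168.6. Its melanoma libraries lay close together, at 148.6, 141.8, 157.2, 122.1 and 151.9 CPM, and its melanoma plus ICI libraries far apart, at 239.5, 123.3, 292.9, 107.2 and 163.6. The lowest library was control 2 and the highest melanoma plus ICI 3, and all groups overlapped.

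The scaffold proteins of the active zone were Bsn and Pclo, the longest genes of the list. Bsn (ENSMUSG00000032589, chr9:108096022-108190384, minus strand, 15938 bases) encodes bassoon, which organises the active zone. Its control libraries were at 615.1, 695.7, 745.9, 245.4 and 534.7 CPM, and its ICI libraries at 816.6, 685.5, 645.6, 626.2 and 587.5. The melanoma libraries were at 687.6, 616.3, 515.8, 685.0 and 685.8 CPM, and the melanoma plus ICI libraries at 276.8, 608.3, 652.6, 547.2 and 627.5. Control 4 and melanoma plus ICI 1 were the lowest by a wide margin, and the other 18 libraries lay between 515.8 and 816.6 CPM. Pclo (ENSMUSG00000061601, chr5:14514918-14863459, plus strand, 22457 bases) encodes piccolo, a large relative of bassoon. Its control libraries were at 224.3, 291.2, 222.8, 161.4 and 227.4 CPM, and its ICI libraries at 303.1, 363.2, 235.8, 276.2 and 279.6. The melanoma libraries were at 332.1, 261.6, 204.1, 243.3 and 271.8 CPM, and the melanoma plus ICI libraries at 166.8, 244.1, 303.9, 224.1 and 235.9. Control 4 and melanoma plus ICI 1 were again lowest. All 5 ICI libraries exceeded 4 of the 5 controls, and control 2 lay within the ICI range.

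**Figure D1:**
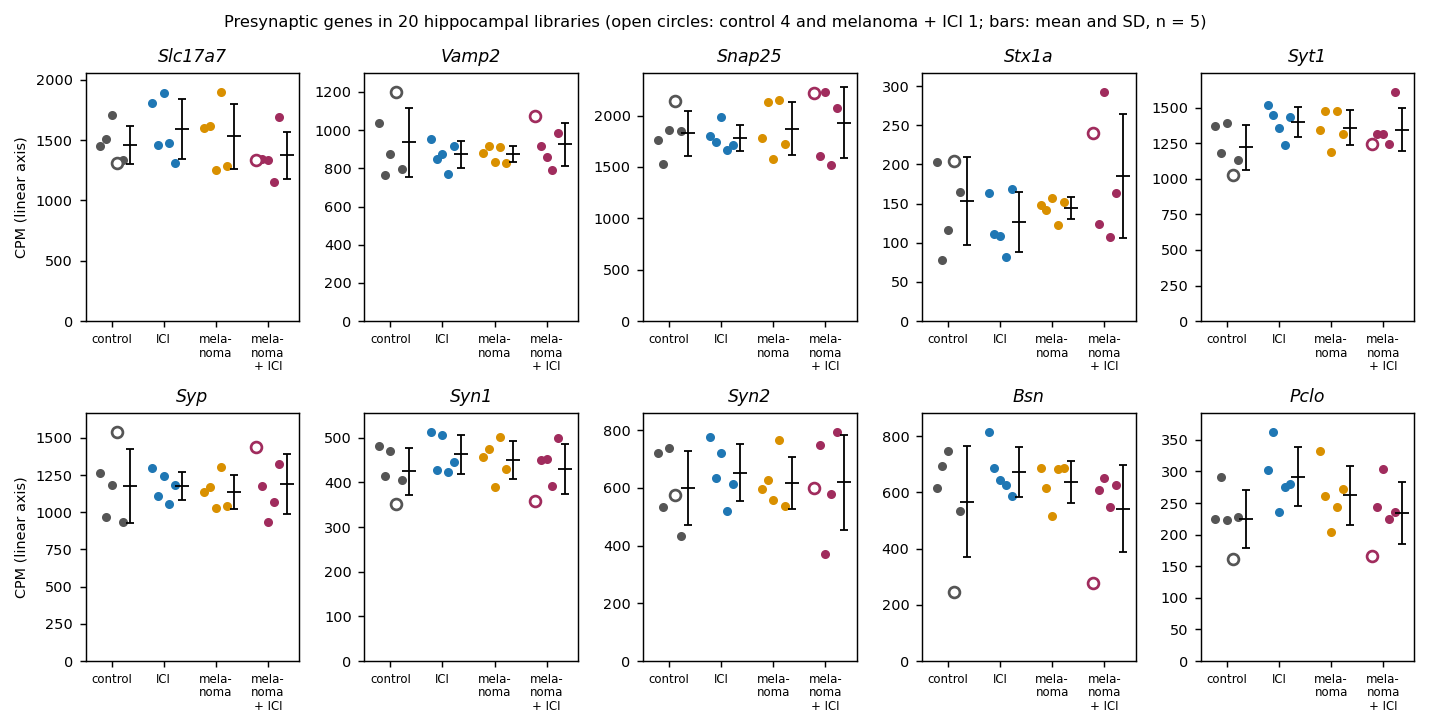
Each panel plots CPM (linear axis from 0) of 1 gene in the 20 libraries by group, with 1 point per mouse and the mean and SD of 5 libraries beside them. The open circles, control 4 and melanoma plus ICI 1, are the lowest for Bsn (245.4 and 276.8 CPM) and the highest for Syp (1543 and 1442 CPM), and the groups overlap in all panels.

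No difference in the 10 genes between groups passed the test. The comparisons asked what checkpoint inhibition does without a tumour (ICI against control), what the tumour does alone (melanoma against control), what both do (melanoma plus ICI against control), what inhibition adds in tumour-bearing mice (against melanoma), what the tumour adds under inhibition (against ICI), and whether the inhibitors' effect differs with the tumour (the interaction, ICI effect with tumour minus without). Counts were tested with edgeR's quasi-likelihood model over all 20 libraries and Benjamini-Hochberg adjustment over the 18427 genes. Several comparisons share the same libraries, so their values are not independent of each other. An adjusted p below 0.05 was reached by 0 of 10 genes in each of the 6 comparisons, beside 0% of all genes tested. The groups of no gene were free of overlap in any of the 5 comparisons of a pair of groups, beside 0.885%, 1.04%, 0.304%, 1.54% and 1.45% of all genes in the order above.

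At an unadjusted p below 0.05 the count was 1 of 10 genes in ICI against control, where 5.23% of all genes reached it. It was 0 of 10 in melanoma against control (5.11% of all genes), in melanoma plus ICI against control (2.38%), against melanoma (5.5%) and against ICI (8.63%). It was 1 of 10 in the interaction (10.3%). The gene was Pclo both times. DESeq2 also gave 0 of 10 at an adjusted p below 0.05 in each comparison, and at an unadjusted p below 0.05 it gave Pclo in the same pair of comparisons and Stx1a in melanoma plus ICI against ICI. With 4 tissue scores as covariates edgeR gave 0 of 10 adjusted and, unadjusted, Pclo and Syt1 in ICI against control and Syt1 in melanoma against control and in the interaction. Limma voom gave 0 of 10 adjusted and, unadjusted, Pclo in the interaction, in ICI against control and when melanoma plus ICI was set against ICI. With each library's length trend removed, edgeR gave 0 of 10 unadjusted in each comparison. The unadjusted count was also 0 of 10 in each without control 4 and melanoma plus ICI 1.

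Pclo averaged 225.4 ± 45.9 CPM (SD, n = 5) in control mice, 291.6 ± 46.8 with ICI, 262.6 ± 46.7 with melanoma and 235.0 ± 49.0 with both. The log2 fold change in ICI against control was 0.37 (SE 0.16, 95% interval 0.03 to 0.71), with an adjusted p of 0.767 by edgeR. The interaction was -0.53 (SE 0.23, interval -1.02 to -0.05), with an edgeR adjusted p of 0.484. Pclo is the longest gene of the list, and control 4 carried the steepest length slope. With each library's trend on gene length removed, the edgeR log2 fold changes of Pclo were 0.18 (SE 0.09, adjusted p = 0.893) and -0.23 (SE 0.12, adjusted p = 0.551). Without control 4 and melanoma plus ICI 1 they were 0.27 (SE 0.14, adjusted p = 0.982) and -0.32 (SE 0.20, adjusted p = 0.743). With each of the 20 libraries left out in turn, the first ran from 0.27 to 0.48 and the second from -0.64 to -0.42.

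Between 2 groups, the largest log2 fold change among the 10 genes was that of Stx1a, 0.55 (SE 0.28, 95% interval -0.03 to 1.13) in melanoma plus ICI against ICI, with 185.3 ± 78.9 and 126.5 ± 37.7 CPM (SD, n = 5). It did not pass (edgeR, adjusted p = 0.580). With 4 tissue scores as covariates, the fitted value was 0.14 (SE 0.12, edgeR adjusted p = 0.677), and with voom's quality weights it was 0.25 (SE 0.24). With each library left out in turn it ran from 0.33, without melanoma plus ICI 3, to 0.70. The interaction of Stx1a was 0.64 (SE 0.39, interval -0.18 to 1.46), and 0.14 (SE 0.18) with the tissue scores and 0.11 (SE 0.33) with voom. With single libraries left out it ran from 0.42, again without melanoma plus ICI 3, to 0.81. For Bsn the interaction was -0.48 (SE 0.33, interval -1.17 to 0.22), and it was -0.11 (SE 0.16) without control 4 and melanoma plus ICI 1, -0.28 without control 4 alone, -0.23 (SE 0.21) with voom and -0.29 (SE 0.25) with the length trend removed.

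The remaining genes also did not pass. In ICI against control, Syp had a log2 fold change of 0.00 with an interval of -0.28 to 0.28, Snap25 of -0.04 (-0.30 to 0.22) and Vamp2 of -0.10 (-0.34 to 0.14). Syn1 was at 0.13 (-0.09 to 0.35), Syn2 at 0.12 (-0.25 to 0.50) and Slc17a7 at 0.12 (-0.16 to 0.40). These intervals bound the differences that 5 libraries per group leave possible and do not show equality. The median over the 10 genes was 0.12 in ICI against control, 0.05 in melanoma against control and 0.03 in melanoma plus ICI against control, beside -0.01, -0.01 and 0.00 over all genes. It was -0.01 against melanoma, -0.07 against ICI and -0.16 for the interaction, beside 0.02 over all genes in each. In the first 3 comparisons 7 of the 10 genes had a value above 0, beside 48%, 48% and 50.7% of all genes. In the others it was 5, 4 and 4 of 10, beside 53.5%, 55% and 52.7%.

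**Figure D2:**
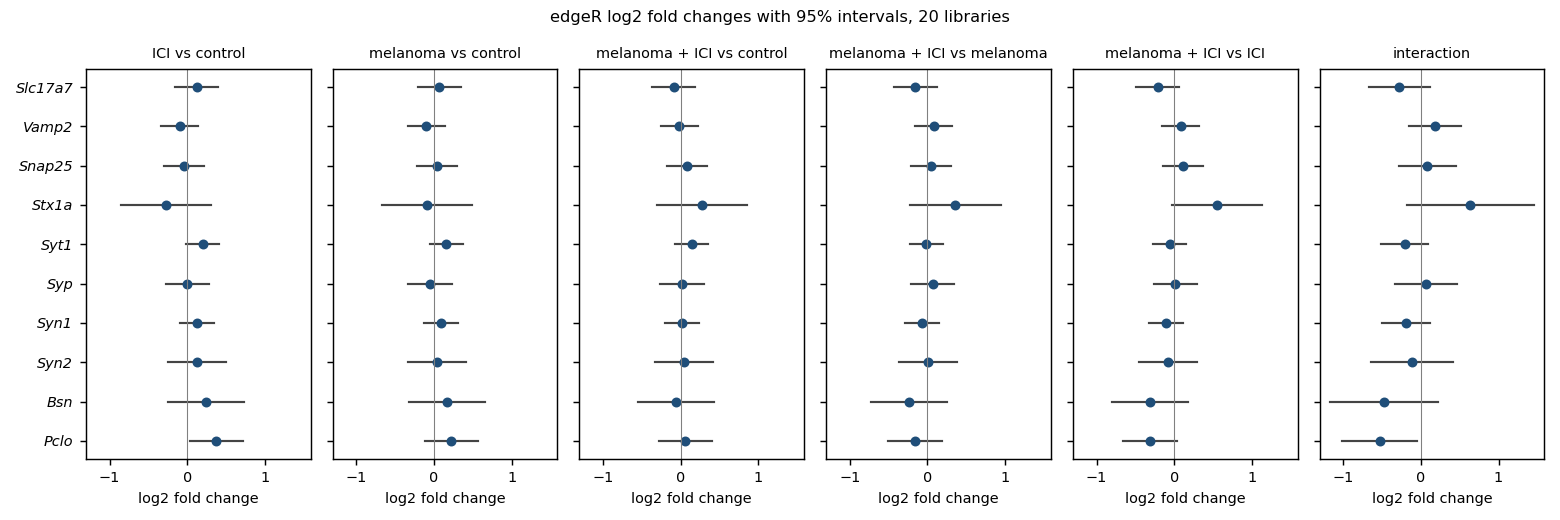
The panels plot edgeR log2 fold changes (x axis) of the 10 genes (rows) in the 6 comparisons, with bars for the 95% interval from 20 libraries and a line at 0. The intervals exclude 0 for Pclo in ICI against control (0.03 to 0.71) and in the interaction (-1.02 to -0.05), and neither passes after adjustment; Stx1a has the widest intervals.

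Of the other genes of the presynaptic pathway, 67 were listed in 6 groups, and all were tested. None of the 67 passed an adjusted p of 0.05 in any comparison. At an unadjusted p below 0.05, 2 were higher and 0 lower in ICI against control, where 2.08% of all genes were higher and 3.15% lower by that rule. The counts were 0 and 0 in melanoma against control (2.7% and 2.41%), 1 and 0 in melanoma plus ICI against control (1.1% and 1.28%), and 0 and 0 against melanoma (2.63% and 2.87%). Against ICI they were 0 higher and 6 lower (4.12% and 4.51%), and in the interaction 0 and 3 (5.99% and 4.28%). The median log2 fold change of the 67 was 0.10 in ICI against control, with 54 above 0, where 48% of all genes were above 0. It was -0.05 in melanoma plus ICI against ICI, with 23 of 67 above 0 beside 55% of all genes, and -0.10 in the interaction, with 18 of 67 beside 52.7%. These comparisons share the ICI libraries. The mean length slope was lower in control than in ICI (-0.02 and 0.02), and control 4 and melanoma plus ICI 1 stand in the groups compared. With the length trend removed the median of the 67 was 0.06 in ICI against control (48 of 67 above 0), -0.03 in melanoma plus ICI against ICI (28) and -0.03 in the interaction (30). Without that pair of libraries it was 0.08 (53), -0.05 (23) and -0.06 (17), and with 4 tissue scores as covariates 0.10 (55), -0.09 (19) and -0.18 (15).

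The 11 other active zone scaffold genes, among them the RIM, ERC and liprin families, had values above 0 in 11 of 11 cases in ICI against control, beside 48% of all genes, with a median of 0.18. The count above 0 was 11 of 13 for genes of the vesicle membrane and proton pump, 9 of 11 for vesicle recycling, 8 of 9 for calcium channels and adhesion, 11 of 17 for SNARE and priming genes and 4 of 6 for vesicular transporters. With each library's length trend removed, 9 of the 11 scaffold genes were above 0 (median 0.12), and without control 4 and melanoma plus ICI 1 it was 10 of 11 (median 0.08). Removing that trend took the calcium channel and adhesion genes from 8 to 4 of 9 above 0, and their median from 0.09 to -0.07. In melanoma plus ICI against ICI 2 of the 11 scaffold genes were above 0, beside 55% of all genes, with a median of -0.10. That count was 4 of 11 with the trend removed (median -0.06) and 4 of 11 without that pair (median -0.03), but 1 of 11 with the 4 tissue scores as covariates (median -0.27). At an unadjusted p below 0.05, 3 of the 11 were lower there, beside 4.51% of all genes. Erc2, a scaffold protein that binds RIM and bassoon, had the smallest p among higher genes in ICI against control, at 168.4 ± 41.0 CPM (SD, n = 5) in control and 220.0 ± 34.4 in ICI. Its log2 fold change was 0.39 (SE 0.17, edgeR adjusted p = 0.767). It was 0.30 with the length trend removed and 0.28 without control 4 and melanoma plus ICI 1. With limma voom it was 0.265 and with the tissue scores 0.26. Erc2 also had the smallest p among lower genes in the interaction, at -0.58 (SE 0.24, edgeR adjusted p = 0.484), which was -0.32 with limma voom and -0.35 with the tissue scores. Syt7, a slow calcium sensor of the synaptotagmin family, was at 562.5 ± 123 CPM in ICI and 384.2 ± 36.1 in melanoma plus ICI. The log2 difference of -0.55 (SE 0.17) had the smallest p of the 67 in any comparison (edgeR, adjusted p = 0.563). This difference was -0.40 with the tissue scores and -0.44 with limma voom.

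The same naming rule gave 8 more genes, none past an adjusted p of 0.05 by edgeR. Cplx1, a complexin that clamps the SNARE complex, was the leading higher gene in melanoma plus ICI against ICI (log2 fold change 0.27) and in the interaction (0.35). Syt12 was the leading lower gene in ICI against control, at -0.16. In melanoma against control Sv2c, a vesicle glycoprotein, was at 0.59 and Slc30a3 at -0.35. The mean log2 CPM of the 7 striatal markers ran from 3.40 to 3.86 in control and from 3.49 to 7.11 in melanoma, and Sv2c was at -0.05 with the 4 tissue scores as covariates. In melanoma plus ICI against control Dnm3, a dynamin of vesicle recycling, was at 0.36 and Doc2b, a calcium sensor of spontaneous release, at -0.74. Against melanoma the adaptor Lin7a was at 0.24 and the liprin Ppfia4 at -0.29. With the 4 tissue scores Dnm3 was at 0.16, Doc2b at -0.40, and Cplx1 at 0.10 against ICI and -0.01 in the interaction. With limma voom Slc30a3 was at -0.23, Ppfia4 at -0.18, and Cplx1 at 0.12 and 0.13.

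Control 4 and melanoma plus ICI 1 divided the 10 genes. In these libraries Bsn, Pclo and Syn1 took their lowest values of the 20 libraries, and Syp and Vamp2 their highest. Bsn was 0.386 and 0.435 times the median of the other 18 libraries there, and Pclo 0.638 and 0.660 times. Syn1 was at 352.4 and 357.4 CPM, below the other 18 at 390.3 to 513.9. Syp was at 1543 and 1442 CPM, above the others at 931.5 to 1328, and Vamp2 at 1202 and 1076 CPM, above the others at 764.8 to 1037. Syn2, Slc17a7, Snap25 and Stx1a lay inside the range of the others in both libraries. The ratio of Bsn to Syp was thus 0.159 and 0.192 in these libraries and between 0.473 and 0.717 in the other 18.

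Gene length alone did not order these deviations. Bsn, at 15938 bases, was farther down than Pclo, at 22457 bases, in both libraries. The 727 genes over 12 kb had a median deviation of -0.47 and -0.35 on the log2 scale, above that of both Bsn and Pclo in each library. Their median length was 14710 bases, shorter than both genes. With each library's length trend removed, Bsn still deviated by -0.79 and -0.73, but Pclo only by -0.08 and -0.15. Syn1, with 3299 bases, is shorter than the median tested gene of 3619 bases, yet was low, and Snap25, with 6791 bases, was at 2140 and 2223 CPM, above the median of 1771 CPM in the other 18. With each library's length trend removed, the SD of log2 CPM over the 20 libraries went from 0.30 to 0.14 for Pclo and from 0.43 to 0.30 for Bsn. It stayed near its value for Stx1a (0.48 and 0.46), and it rose for Syp (from 0.20 to 0.22) and Snap25 (from 0.18 to 0.22). The median SD of the 2339 genes with at least 100 CPM went from 0.19 to 0.17. Why these libraries carry a length trend was not tested.

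**Figure D3:**
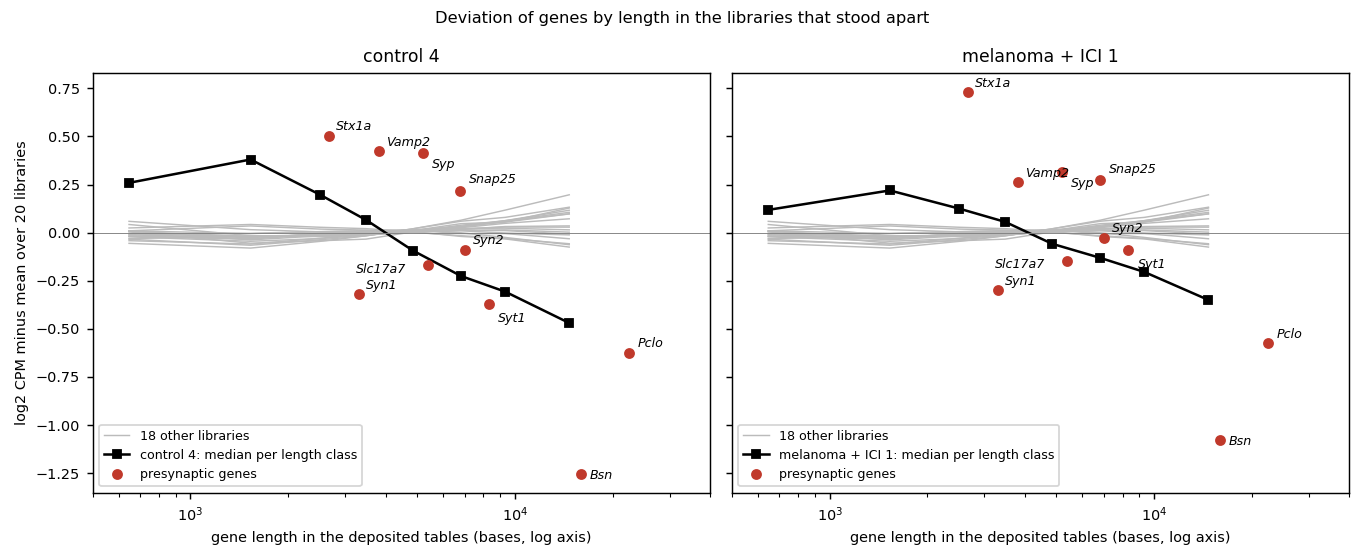
For control 4 (left) and melanoma plus ICI 1 (right), the y axis gives log2 CPM minus the mean over 20 libraries and the x axis gene length in bases on a log axis. Black squares are medians of genes per length class, grey lines the same for the other 18 libraries, and red points the 10 genes. Bsn lies far below the black line in both panels, while Snap25, Syp, Vamp2 and Stx1a lie above it.

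Within the 18 other libraries the length slope was still related to Pclo. Its log2 CPM had a Pearson r of 0.75 with the slope (permutation test, p = 0.00037, adjusted p = 0.0037 over the 10 genes) and a Spearman rho of 0.67 (permutation p = 0.00337, adjusted p = 0.0337). Without the farthest libraries, melanoma 3 and ICI 2, r was 0.59 over 16. None of the other 9 genes passed in the 18 libraries. Bsn had r = 0.44 (permutation test, adjusted p = 0.346) and rho = 0.38, and the r of the remaining 8 lay between -0.31 and 0.07. Over all 20 libraries 7 of 10 genes passed on Pearson r, among them Bsn with r = 0.90 and Vamp2 with r = -0.74. On Spearman's rho Pclo alone passed (permutation test, adjusted p = 0.0016). Of the 7, 6 no longer passed without control 4 and melanoma plus ICI 1. A slope taken only from genes over 10 CPM left Pclo as the only gene past an adjusted permutation p of 0.05 in the 18 libraries (r = 0.75), with r of -0.49 for Syp and -0.52 for Vamp2 (permutation test, adjusted p = 0.129 each). Control libraries had a mean slope of -0.02, ICI libraries 0.02, melanoma libraries 0.01 and libraries with both -0.01. From lowest to highest this is the order of the group means of Pclo as well, whose fold changes with the trend removed are given above. The SD of the slope within a group ran from 0.015 in melanoma to 0.050 in control. Both sets of means include control 4 and melanoma plus ICI 1, and whether the trend set the order of Pclo was not tested.

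Stx1a followed the neocortical marker score, the mean log2 CPM of Tbr1, Rorb, Fezf2, Cux2 and Lamp5. Over the 20 libraries r was 0.95 and rho 0.95, each with a permutation p of 1e-05, the smallest that 100000 resamples can give, and an adjusted p of 0.0005 over the 150 relations of the 10 genes to 15 marker lists. Without control 2 and melanoma plus ICI 3, the farthest libraries, r was 0.93. Without control 4 and melanoma plus ICI 1 it was 0.94, and with group means removed 0.95. Of the 5 markers, r with Stx1a was 0.86 for Tbr1, 0.83 for Lamp5, 0.74 for Cux2, 0.69 for Rorb and 0.48 for Fezf2. The summed level of the 5 ran from 136.7 to 330.7 CPM among controls, 164.4 to 293.4 with ICI, 170.4 to 252.3 with melanoma and 177.0 to 464.7 with both. The highest sum was in melanoma plus ICI 3, the library with the highest Stx1a.

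Stx1a was also higher where markers of GABA neurons were higher (r = 0.87, rho = 0.91) and lower where markers of the dentate gyrus (r = -0.74, rho = -0.66) were higher, with permutation adjusted p-values for r of 0.0005 and 0.00429. Its r was 0.69 with endothelial markers, -0.665 with postsynaptic markers of excitatory synapses and -0.64 with CA3 markers. The permutation adjusted p-values of these were 0.0111, 0.0198 and 0.0242. Whether neocortical tissue in the dissection set the level of Stx1a was not tested. These marker relations were computed after earlier results of the data were known, and 18 of the 150 passed an adjusted p of 0.05 on r. Only some of them are named here.

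**Figure D4:**
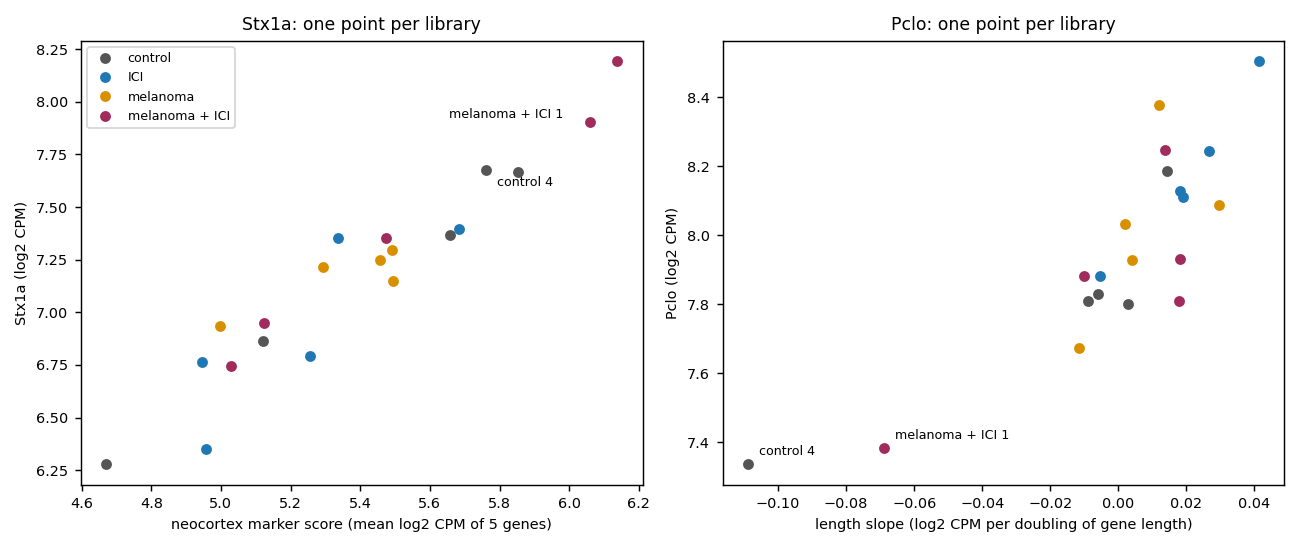
Left, log2 CPM of Stx1a (y axis) against the neocortical marker score (x axis, mean log2 CPM of 5 genes), 1 point per library coloured by group. Right, log2 CPM of Pclo (y axis) against the length slope (x axis). Points of all groups share 1 line on the left (r = 0.95 over 20), and control 4 and melanoma plus ICI 1 stand alone at the lower left of the right panel, apart from the cloud of 18 (r = 0.75).

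Other members of the list followed other markers. Syn2 was lower where oligodendrocyte markers were higher, with r = -0.75 and rho = -0.78 (permutation test, adjusted p = 0.00375 and 0.003), and r was -0.75 without melanoma plus ICI 2 and control 1. All 6 oligodendrocyte markers had an r between -0.79 and -0.73 with Syn2, and their summed level ran from 2829 to 8475 CPM. Snap25 was higher where the 8 neuronal markers were higher, with r = 0.82 and rho = 0.86 (permutation test, adjusted p = 0.0005 for both). Map2, at a mean of 964.2 CPM the most abundant of the 8, went the other way (r = -0.52), and the other 7 had r between 0.48 and 0.75 with Snap25. The r with the score was 0.82 without control 4 and melanoma plus ICI 1, which were also the farthest libraries. The relations of Vamp2 (r = 0.78) and Syp (r = 0.65) to the same score passed over 20 libraries (permutation test, adjusted p = 0.0024 and 0.0212), and r was 0.52 and 0.36 without that pair. Slc17a7 was higher where postsynaptic markers of excitatory synapses were higher, with r = 0.72 and rho = 0.74 (permutation test, adjusted p = 0.0095 and 0.0081), and with r = 0.71 without that pair. Of those 7 markers, Dlg4 (r = 0.77) and Camk2a (r = 0.71) were nearest to Slc17a7, and Homer1 had r = -0.28. For Bsn the r with the same score was 0.70 (permutation test, adjusted p = 0.00188) and 0.60 without that pair.

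The 10 genes did not vary as a single unit. In the 18 libraries without control 4 and melanoma plus ICI 1, 20 of the 45 pairs passed an adjusted permutation p of 0.05 on Pearson r, and all 20 were positive. Syn1 was in 7 of them, Syt1 and Slc17a7 in 6 each, Syp and Syn2 in 5 each, Vamp2 in 4, Snap25 and Bsn in 3 each, Pclo in 1 and Stx1a in 0. The highest was Syp with Syn2, r = 0.93 and rho = 0.93 (permutation test, adjusted p = 0.00045 each), and r was 0.92 without the farthest libraries. Syn1 with Slc17a7 had r = 0.84 and rho = 0.80, and Syp with Syt1 r = 0.83 and rho = 0.86, with permutation adjusted p-values of 0.000675 for each r. Bsn with Pclo had r = 0.55 and rho = 0.51 (permutation test, adjusted p = 0.0438 and 0.0674). Bsn with Syn1, whose promoters are printed above, had r = 0.59 and rho = 0.46 (permutation test, adjusted p = 0.0250 and 0.126), and r was 0.38 without the farthest libraries.

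Over all 20 libraries 16 pairs passed, 14 positive and 2 negative, and control 4 and melanoma plus ICI 1 set several of them. Vamp2 with Bsn had r = -0.62 over 20 and 0.22 over 18. Vamp2 with Pclo had r = -0.55 over 20 and -0.11 over 18. Syp with Syn1 had r = 0.05 over 20 and 0.81 over 18, and Bsn with Syn1 r = 0.78 over 20. Syp with Vamp2 was high in both, at 0.88 and 0.80.

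**Figure D5:**
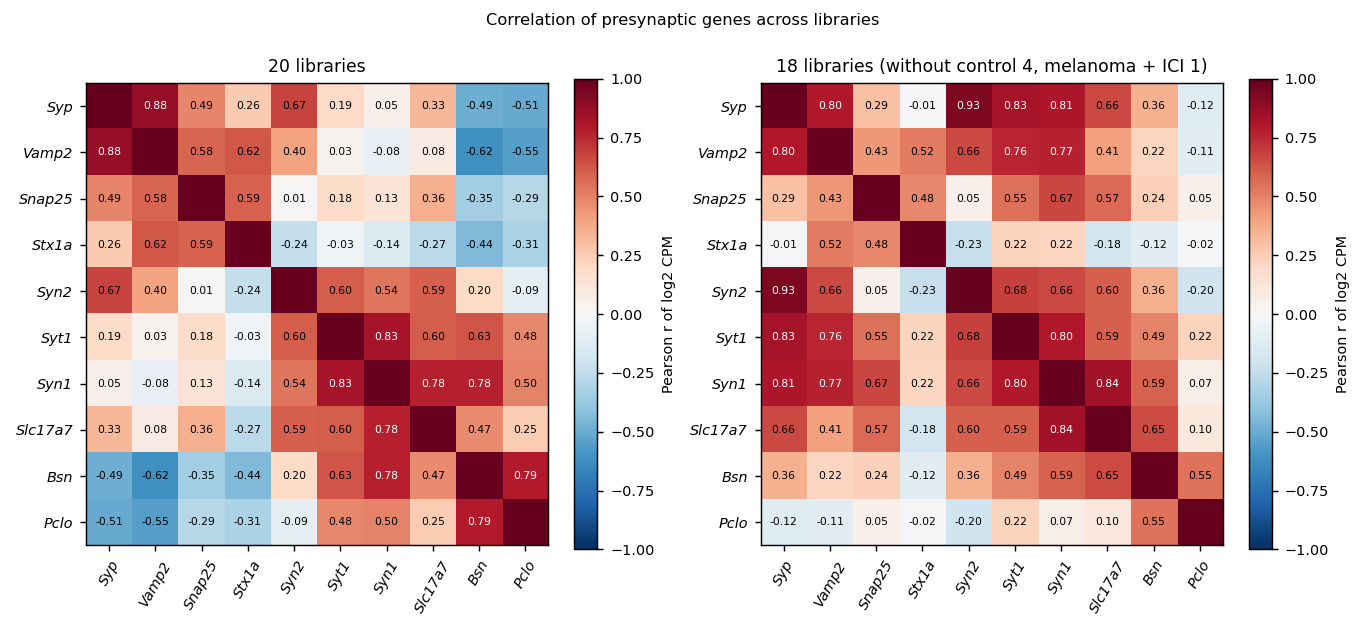
Pearson r of log2 CPM between the 10 genes over 20 libraries (left) and over the 18 without control 4 and melanoma plus ICI 1 (right), on a colour scale from -1 to 1. On the right Syp, Syn2, Syt1, Syn1, Vamp2 and Slc17a7 share mostly high positive values, while Stx1a and Pclo have mostly low ones.

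The library melanoma plus ICI 3 departed in its own way. It had the highest Snap25 of all libraries (2233 CPM), the highest Stx1a (292.9 CPM) and the lowest Syn2 (372.4 CPM), and its Syp, at 935.5 CPM, was the second lowest. The ratio of Syn1 to Syn2 was 1.21 there, against a median of 0.689 over the 20 libraries. The same library had the highest summed neocortical and endothelial markers of all. Its mean log2 CPM of the markers of dentate gyrus (2.12), CA1 (5.62) and CA3 (2.83) was the lowest of the 20 libraries, and that of the striatal markers, at 6.11, was the highest of its group. The part of these in its levels was not tested.

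For each of the 10 genes, the genes most like it over the 20 libraries were ranked by Pearson r of log2 CPM among 10407 genes with at least 10 CPM, as a description. For Syp they were Atp6v0e2 and Atp6v1c1 (r = 0.97 each), subunits of the proton pump that acidifies vesicles, and Mllt11 (0.95). For Syn1 they were Atp9a (0.95), Pacsin1 (0.94) and Rab6b (0.91), and for Syn2 Ap2a2 (0.97), Slc25a22 (0.96) and Sept9 (0.93). For Snap25 they were Rap1gds1 (0.96), Tuba4a (0.88) and Slc27a4 (0.86), and for Syt1 Rab6b (0.89), Gnaz (0.88) and Atp9a (0.87). Stx1a was most like Vip (0.94), the neuropeptide of a class of interneurons, Osbpl1a (0.93) and Kcns1 (0.93). Vamp2 was most like Tpi1 (0.96), Snap47 (0.95) and Rab3a (0.95), a GTPase of the vesicle membrane. Slc17a7 was most like Dnm1 (0.95), the dynamin of vesicle retrieval, Tigar (0.92) and Lztr1 (0.90). Bsn was most like Gabbr2, Ppp1r12b and Prrc2b (0.98 each), and Pclo was most like Vps13b, Herc1 and Dok6 (0.94 each). No gene of the list was among the nearest 3 of another. All these values include control 4 and melanoma plus ICI 1.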

How the data were processed

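RNA of 20 single hippocampi was measured by bulk sequencing, and each library was deposited as a table of raw counts per gene. The authors' processing notes name STAR 2.5.2b and DESeq2 1.16.1 without their role, per the submitters' processing notes. Per the file headers, the deposited counts come with coordinates, strand and gene length. The counting program, its use of strand, its handling of multi-mapping reads, the annotation and the build are not given in the sources used here. Of 49671 identifiers, 49412 are in GENCODE M21 (GRCm38) and 45214 have its start and end. Symbols were taken from there, and the 345 identifiers without a symbol held 0.0702% of the counts. The 10 genes, the lists and the tests were chosen with earlier results of these data known.

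The labels give the groups, and single mice were the replicates. No library was left out. Genes were kept by filterByExpr (minimum count 10, minimum total 15). A quasi-likelihood model with robust estimation in edgeR 4.0.16 (R 4.3.3) was run on the 20 libraries together, with a mean for each group, TMM factors between 0.956 and 1.04, a median of 3.57 prior and 16 residual degrees of freedom, and 6 contrasts. P-values were adjusted by Benjamini-Hochberg over 18427 genes within a contrast. CPM uses the TMM-scaled library size, and log2 CPM a prior count of 2. A marker score is the mean log2 CPM of its list. Correlation p-values are two-sided, from 100000 permutations. Scripts were tested on simulated data.

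Alternatives were size factors, DESeq2 1.42.0, limma 3.58.1 voom (quality weights), leaving out the filter, fitting only the compared groups, replicate number as a block, a lowess length trend (span 0.3) removed, 4 tissue scores as covariates, and libraries left out. Named presynaptic genes other than the 10 are those with the smallest p in each direction per comparison. The genes most like each of the 10 are the 3 with the highest r. The deviations of same-numbered libraries were not all positively correlated, and the labels tie the numbers to nothing shared, so numbers were not treated as pairs. With 3503 counts for Pclo and 1824 for Stx1a in the lowest library, counting error was small beside the spread between mice.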

Additional observations from a re-analysis of the deposited data

Results flagged for a closer look

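In the 40 groups of 5 values (10 genes in 4 groups), 2 values lay far from the rest of their group by Dixon's criterion, whose critical value for 5 samples is 0.71. Chance alone flags about 1 in 20 groups. Syt1, the calcium sensor of release, was at 1613 CPM in melanoma plus ICI 5, while the other 4 libraries of that group were at 1245 to 1313 CPM, a gap of 0.815 of the group's range. Bsn, the active zone scaffold, was at 276.8 CPM in melanoma plus ICI 1, while the other 4 were at 547.2 to 652.6 CPM, a gap of 0.720 of the range. Melanoma plus ICI 1 is one of the pair of libraries with the steepest negative length slopes. Control 4, the other of that pair, was at 245.4 CPM for Bsn and did not pass the criterion in its group.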

How the results depend on the processing

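The 6 comparisons of the 10 genes were recomputed under 30 alternatives, 20 of which left out 1 library each. Fitting only the groups compared did not give the interaction. No gene passed an adjusted p of 0.05 under any alternative, and the lowest adjusted p was 0.236 (limma voom, Pclo, interaction). Of 1790 alternative fold changes, 1773 stayed within 1 standard error of the reported value, and 17 moved by more, 9 of these with tissue scores, 3 with voom, 2 with the length trend removed, 2 with length and GC trends removed (chosen after seeing the data) and 1 without control 4 and melanoma plus ICI 1. The sign differed in 125, none of which had a reported value above 1 standard error.

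None of the other 67 presynaptic genes passed under any of these alternatives (lowest adjusted p 0.240, limma voom). Over all genes, where edgeR called 0 in each comparison, DESeq2 called 47 in the interaction, 9 in melanoma plus ICI against ICI, 8 in melanoma against control and 1 in ICI against control. Voom called 19 in the interaction, 25 in melanoma plus ICI against melanoma and 1 for melanoma over control. Fitting only the groups compared called 3 in melanoma against control, and leaving out control 4 and melanoma plus ICI 1 called 1 in the interaction. Leaving out single libraries gave 0 to 11 in the interaction, 0 to 12 in melanoma plus ICI against melanoma and 0 to 3 in melanoma against control, each highest without melanoma plus ICI 3. The replicate block called 0 genes in each comparison and 0 of the 10. Same-numbered libraries had correlations of deviations between -0.35 and 0.53 (mean 0.03), and differently numbered ones between -0.52 and 0.69 (mean -0.01). Replicate 1 libraries had the highest mean, 0.161, and 8 of 20 libraries had, of the 5 numbers, their highest mean correlation with their own, where an even share would be 1 in 5. The numbers were used as unpaired.

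For 6 genes the relation to the length slope depended on control 4 and melanoma plus ICI 1, while that of Pclo passed without them (r = 0.75). Without them r was -0.16 for Syp, -0.31 for Snap25, 0.0743 for Syt1, -0.29 for Vamp2 and 0.44 for Bsn, which no longer passed, and -0.19 for Syn1, against 0.54 with them. With the slope taken from genes over 10 CPM, r was 0.44 for Syt1 (permutation adjusted p = 0.0678), and Spearman's rho also passed for Syp, Vamp2, Snap25 and Bsn (permutation adjusted p of 0.0162 to 0.0266). That slope without the same pair, chosen after seeing the data, gave r of -0.492 for Syp, -0.465 for Syn1, -0.431 for Snap25, -0.234 for Syt1, -0.518 for Vamp2 and 0.303 for Bsn, none past the threshold, and 0.752 for Pclo, which passed. With 5 mice per group the intervals of Bsn, Stx1a and Pclo left differences of over 1 log2 unit possible in the interaction.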
